A study of Fundulus heteroclitus with 15 samples.

Results

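Whey acidic protein (WAP) domain genes were followed in livers of adult females of the mummichog, Fundulus heteroclitus, a killifish of estuaries. The family comprised 4 gene names on 7 array probes, out of 7152 probes that were not controls: those called WAP four-disulfide core domain protein, whey acidic protein or WDNM1. The search itself used names alone, but the family was selected on its rise at 50 and 250 ng/L, known from these same arrays. The differences between groups below are therefore a description of the members and carry no test. The fish had been kept for 14 days in water with or without 17α-ethinylestradiol (EE2), a synthetic estrogen used in oral contraception. There were 5 control arrays at 0 ng/L, 5 arrays at 50 ng/L and 5 at 250 ng/L, described in the labels as biological replicates, each with Cy3-labelled total liver RNA. The sources used here do not give the strain, the vehicle in the control water, or whether an array held 1 fish or a pool.

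The WAP domain, also called the four-disulfide core, is a small fold held together by disulfide bonds between its cysteines. Proteins built from it are mostly small and secreted, and several mammalian members, such as SLPI and elafin, inhibit serine proteases. Whey acidic protein itself is a milk protein of rodents and some other mammals, WDNM1 was described in rat mammary tumours, and WFDC2 (HE4) was first described as an epididymal protein in human. In fish liver the best known targets of estrogens are the vitellogenins, which are yolk precursors, and the zona pellucida proteins of the egg envelope.

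A total of 3 probes carried the name WAP four-disulfide core domain protein 2 (WFDC2) and are called here by their numbers on the array, 20429, 20426 and 20431. The probes named WAP four-disulfide core domain protein 3 (WFDC3) were 20444 and 20433. A single probe, 20451, was named WDNM1, a fragment, and a single probe, 20461, whey acidic protein. The names are those of the array's design, and these probes carry no accession that would tie them to a genome position. Probe sequences were not used here, so whether different probes bind the same transcript was not tested.

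Every value is a log2 level relative to the 75th percentile of its own array, so a level of 0 is the signal that 75% of that array's probes do not exceed. Levels of different probes cannot be compared with each other, since each probe binds with its own strength. All 7 probes were well above background on all 15 arrays, and none was saturated. Their processed signals ran from 13.3 for WDNM1 20451 to 46852 for whey acidic protein 20461, and the ratio of spot signal to local background from 1.40 (WFDC3 20433) to 1301 (whey acidic protein 20461).

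WFDC2 20429 was the member with the clearest separation of the 3 groups. Its control levels were −2.69, −2.41, −3.51, −3.88 and −3.25 in replicates 1 to 5. At 50 ng/L they were 1.66, −0.85, 0.13, 2.14 and −0.47, and at 250 ng/L 2.93, 3.64, 2.36, 2.91 and 2.44. No array of any group overlapped with another group. The mean was 3.67 ± 0.516 (SE, n = 5 per group) higher at 50 ng/L than in controls, or 12.7-fold, and 6.0 ± 0.516 higher at 250 ng/L, or 64.2-fold. Between the doses the difference was 2.33 ± 0.516, or 5.04-fold.

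Whey acidic protein 20461 had control levels of −1.95, 1.74, −2.38, −1.45 and −3.52. At 50 ng/L the levels were 2.33, 2.19, 1.82, 1.48 and 0.81, and at 250 ng/L 3.84, 4.77, 2.95, 4.08 and 3.77. Control replicate 2 lay among the 50 ng/L arrays, while the other 4 controls lay below all of them. The 250 ng/L arrays lay above every other array. The mean shift from control was 3.24 ± 0.717 (SE), or 9.43-fold, at 50 ng/L and 5.39 ± 0.717, or 42.1-fold, at 250 ng/L. Without control replicate 2 these shifts were 4.05 and 6.21.

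WFDC2 20426 and WFDC3 20444 gave almost the same profile although their names differ. WFDC2 20426 had control levels of −3.26, 0.13, −3.75, −3.16 and −4.10, then 1.35, −2.50, 0.94, −0.39 and −0.45 at 50 ng/L and 2.10, 3.31, 2.41, 2.89 and 1.72 at 250 ng/L. WFDC3 20444 had control levels of −3.60, −0.19, −4.15, −3.33 and −4.55, then 1.16, −2.64, 0.77, −0.80 and −0.72 at 50 ng/L and 1.63, 3.01, 2.22, 2.73 and 1.38 at 250 ng/L. In both probes control replicate 2 was the high control and 50 ng/L replicate 2 the low array of its group, so that control and 50 ng/L overlapped. All 5 arrays at 250 ng/L lay above both other groups. The shifts at 50 ng/L were 2.62 ± 0.778 for WFDC2 20426 and 2.72 ± 0.791 for WFDC3 20444, and at 250 ng/L 5.31 ± 0.778 and 5.36 ± 0.791, or 39.8-fold and 41.0-fold. Without control replicate 2 the shifts at 50 ng/L were 3.36 and 3.46.

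WFDC2 20431, WFDC3 20433 and WDNM1 20451 formed another group of profiles, with a small difference at the lower dose and a large one at the higher. WFDC2 20431 had control levels of −4.87, −3.18, −4.71, −4.49 and −5.71, then −3.10, −2.82, −2.92, −2.59 and −4.71 at 50 ng/L and 0.09, 2.58, 0.38, 0.29 and −0.54 at 250 ng/L. WFDC3 20433 had control levels of −5.39, −3.98, −5.34, −5.34 and −5.62, then −3.83, −3.61, −3.54, −3.47 and −5.40 at 50 ng/L and −0.72, 2.12, 0.14, −0.39 and −1.43 at 250 ng/L. WDNM1 20451 had control levels of −5.47, −3.76, −4.97, −5.05 and −5.85, then −4.14, −3.55, −3.57, −3.78 and −5.78 at 50 ng/L and −0.38, 2.29, −0.17, −0.20 and −1.39 at 250 ng/L. In all 3 probes control replicate 2 was the highest control, 50 ng/L replicate 5 lay down among the controls, and 250 ng/L replicate 2 was the highest array of the series. Control and 50 ng/L therefore overlapped, and the 250 ng/L arrays lay above both.

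The shift at 50 ng/L was 1.36 ± 0.574 for WFDC2 20431 (2.57-fold), 1.16 ± 0.568 for WFDC3 20433 (2.24-fold) and 0.856 ± 0.609 for WDNM1 20451 (1.81-fold). The higher dose gave 5.15 ± 0.574, 5.08 ± 0.568 and 5.05 ± 0.609, or 35.5-fold, 33.8-fold and 33.1-fold. Most of the difference thus fell between the doses: 3.79, 3.91 and 4.19 on the log2 scale, or 13.8-fold, 15.1-fold and 18.3-fold. Before scaling, the signals at 50 ng/L were 28.0 to 418 for WFDC2 20431 and 17.4 to 252 for WFDC3 20433. For WDNM1 20451 they were 13.3 to 204. The control signals of each probe lay within its range at 50 ng/L. The array's 75th percentile was 1382 to 2473 in controls. At 50 ng/L it was 3586 in replicate 1 and 542 to 1020 in replicates 2 to 5. How much of the shifts at 50 ng/L comes from the scaling was not tested. The 2 spots of WFDC3 20433 disagreed in control replicate 5, with processed signals of 24.5 and 104, or levels of −6.66 and −4.57. The other 104 pairs of spots differed by at most 0.538.

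**Figure D1:**
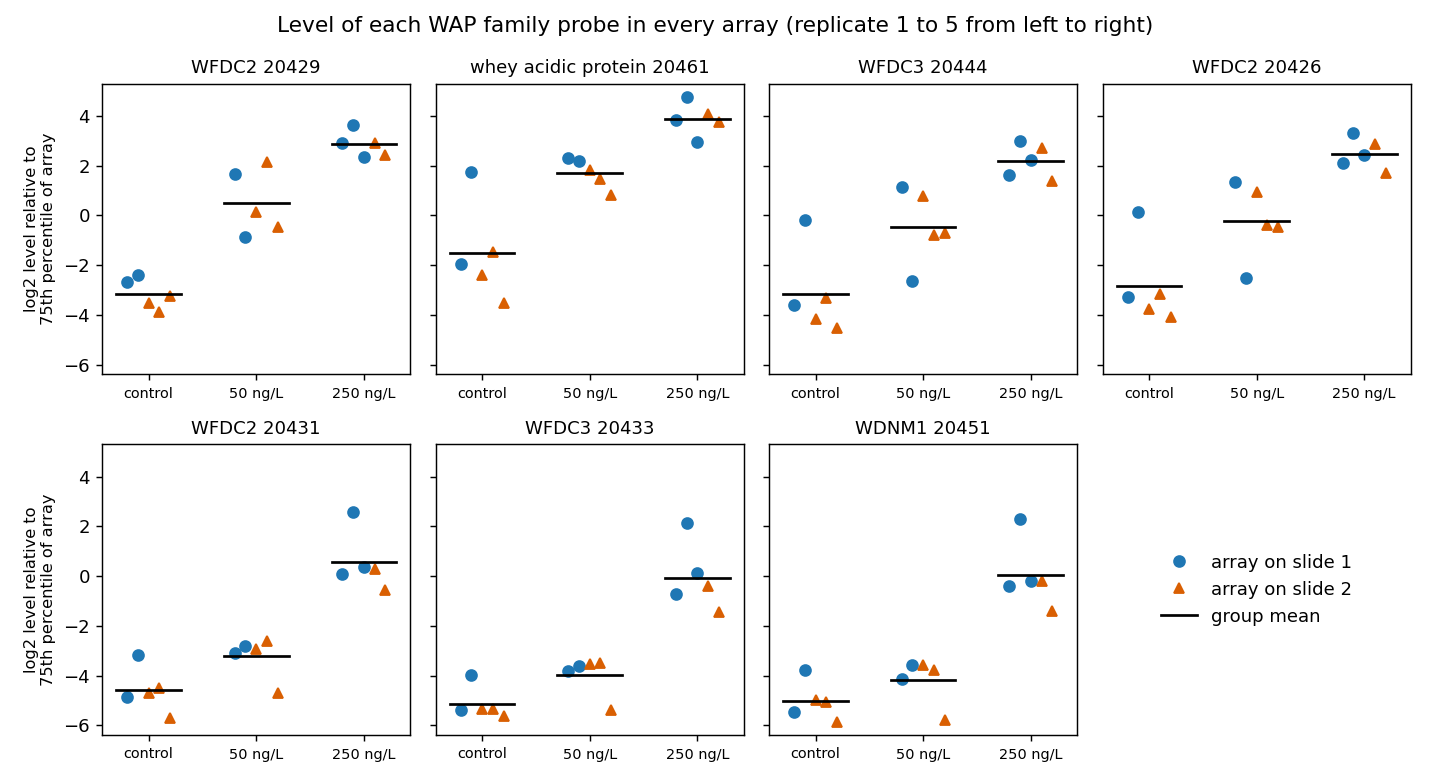
Log2 level of each of the 7 probes (y axis, relative to the 75th percentile of the array) in the 5 arrays of each group (x axis), with blue circles for slide 1, orange triangles for slide 2 and a black line for the group mean. All 250 ng/L arrays of every probe lie above its control and 50 ng/L arrays, and only WFDC2 20429 has no overlap between control and 50 ng/L.

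With the scaling used, the 7 probes reached similar shifts at 250 ng/L, from 5.05 to 6.0, but differed in how much of that shift was present at 50 ng/L. The share was 61.1% for WFDC2 20429, 60.0% for whey acidic protein 20461, 50.7% for WFDC3 20444 and 49.2% for WFDC2 20426. It was 26.4% for WFDC2 20431, 22.9% for WFDC3 20433 and 16.9% for WDNM1 20451, which were dim in both control and 50 ng/L arrays. Averaged over probes, the first 4 shifted by 3.06 at 50 ng/L and the last 3 by 1.13, a gap of 1.93 ± 0.591 (SE over 5 arrays per group). For 250 ng/L the averages were 5.52 and 5.09, with a gap of 0.43 ± 0.591. Both groupings were read from these levels, so the gaps carry no test. Names did not follow this division: WFDC2 probes and WFDC3 probes stood on both sides of it.

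The arrays lay on 2 slides that each held all 3 groups, and the size of several shifts differed between slides. At 50 ng/L the shifts within slide 1 and slide 2 were 0.99 and 3.70 for WFDC2 20426, 1.16 and 3.76 for WFDC3 20444, 2.36 and 3.82 for whey acidic protein 20461, and 2.96 and 4.14 for WFDC2 20429. For WFDC2 20431, WFDC3 20433 and WDNM1 20451 they were 1.07 and 1.56, 0.96 and 1.30, and 0.77 and 0.91. The gap between the 4 probes and the 3 at 50 ng/L was 0.93 within slide 1 and 2.60 within slide 2. At 250 ng/L the gap was −0.69 within slide 1, 1.54 within slide 2 and 0.73 without control replicate 2, so its direction differed between slides. All 7 shifts at 250 ng/L were between 3.96 and 6.38 in either slide. Control replicate 2, the high control, and 50 ng/L replicate 2, the low array for WFDC2 20426 and WFDC3 20444, both lay on slide 1, which held 2 control and 2 arrays at 50 ng/L.

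**Figure D2:**
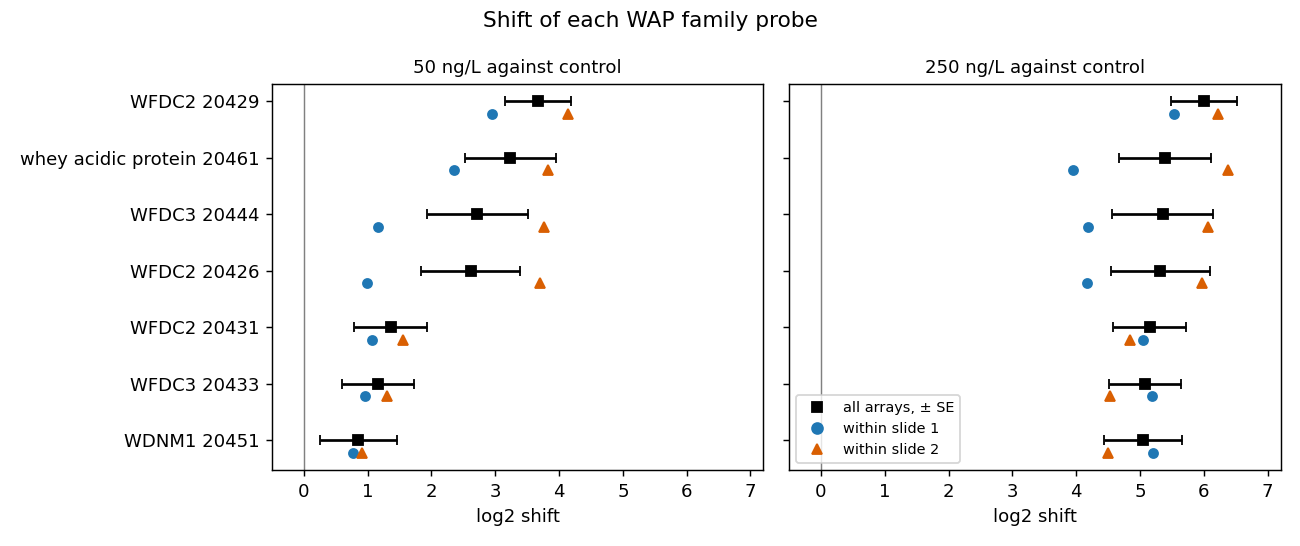
Log2 shift from control (x axis) of each probe (y axis) at 50 ng/L (left) and 250 ng/L (right). Black squares are all arrays with the SE of the limma fit, blue circles are slide 1 alone and orange triangles slide 2 alone. The 4 upper probes lie between 2.62 and 3.67 at 50 ng/L and the 3 lower between 0.856 and 1.36, while all 7 lie between 5.05 and 6.0 at 250 ng/L.

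A limma fit over all 6145 probes tested gave the background for these differences. At 50 ng/L, 0.537% of all probes were called higher (33 probes), and of the 7 members 1, WFDC2 20429, was called. At 250 ng/L, 2.07% were called higher and 0.618% lower, and 7 of 7 members were higher. Between 250 and 50 ng/L, 1.06% were called higher and 0.0163% lower, and 4 of 7 members were higher, namely WFDC2 20429, WFDC2 20431, WFDC3 20433 and WDNM1 20451. Every array of the higher group lay above every array of the lower in 1 of 7 members at 50 ng/L, against 0.83% of all probes, in 7 of 7 at 250 ng/L, against 2.54%, and in 7 of 7 between the doses, against 2.03%. The members were selected on these contrasts, so nothing is read from the counts.

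The count at 50 ng/L depended on control replicate 2. Without it, whey acidic protein 20461, WFDC2 20426 and WFDC3 20444 were called as well, making 4 of 7, against 0.586% of all probes. The count between the doses also depended on this control, through the spread that all groups share in the fit. Without it, WFDC2 20426 and whey acidic protein 20461 were called there too, with unchanged shifts of 2.70 and 2.16. That made 6 of 7, against 0.57% to 1.09% of all probes in fits with an array left out. Within slide 1 alone 0 of 7 were called at 50 ng/L, against 0.0488% of all probes, and 1 of 7 at 250 ng/L, against 0.684%. The call of WFDC2 20429 between the doses was kept in 4 of the 15 fits that each left out an array, and those of WFDC2 20431, WFDC3 20433 and WDNM1 20451 in 15 of 15.

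By size of shift, the members ranked between 6 and 24 among the 6145 probes at 250 ng/L, with a median shift of 5.31 against −0.05 over all probes. At 50 ng/L their ranks ran from 6 (WFDC2 20429) to 251 (WDNM1 20451), with a median of 2.62 against −0.01. Between the doses the ranks ran from 4 (WDNM1 20451) to 44 (whey acidic protein 20461).

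**Figure D3:**
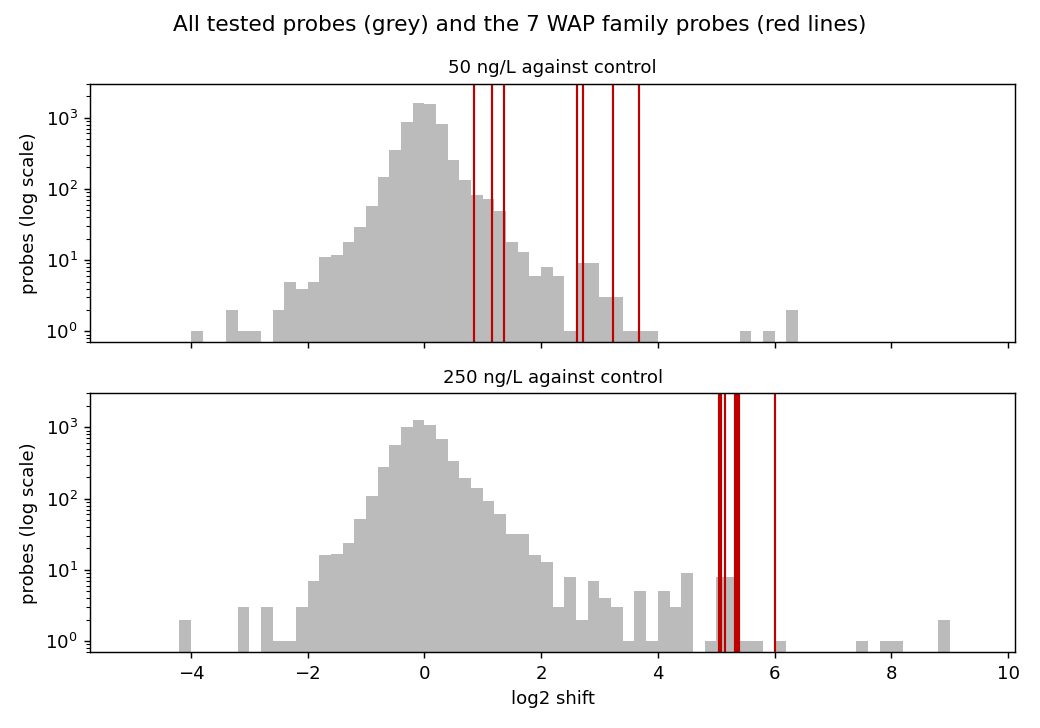
Number of probes (y axis, log scale) by log2 shift from control (x axis) at 50 ng/L (upper panel) and 250 ng/L (lower panel) for the 6145 probes tested, in grey, with a red line for each of the 7 members. The members spread from 0.856 to 3.67 at 50 ng/L and lie together between 5.05 and 6.0 at 250 ng/L.

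The spread of the members within a group was compared next, as each array's deviation from the mean of its group, which does not use the differences between groups. WFDC2 20426 and WFDC3 20444 deviated together with Pearson r = 0.997 and Spearman rho = 0.982 over 15 arrays. The difference of their levels had an SD of 0.113 over the 15 arrays. Unlike r, this SD includes differences between groups. WFDC2 20431 and WDNM1 20451 followed each other with r = 0.979 (rho = 0.971), WFDC3 20433 and WDNM1 20451 with r = 0.976 (rho = 0.943), and WFDC2 20431 and WFDC3 20433 with r = 0.962 (rho = 0.957). The SD of the difference over the 15 arrays in these 3 pairs was 0.261 to 0.303, and within single groups it was 0.0986 to 0.379. WFDC2 20429 and whey acidic protein 20461 each stood alone. The other 17 of the 21 pairs had r between 0.333 and 0.714, and an SD of the difference over the 15 arrays between 0.960 and 1.57.

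The 4 pairs that share a name were all among those 17, with r between 0.475 and 0.561. WFDC2 20426 thus exceeded 0.95 only with WFDC3 20444, and had r = 0.561 with WFDC2 20429 and 0.509 with WFDC2 20431. WFDC3 20433 exceeded 0.95 with WDNM1 20451 and WFDC2 20431. Over the whole array, 1534 pairs of named probes with the same gene name had a median r of 0.585, and 12.1% of them exceeded 0.95. All 7552441 pairs of named probes had a median of 0.0249, and 0.0178% exceeded 0.95. The close pairs remained close within each slide: r was 0.999 and 0.996 for WFDC2 20426 with WFDC3 20444, and between 0.926 and 0.996 for the 3 pairs among WFDC2 20431, WFDC3 20433 and WDNM1 20451. Without the 2 arrays farthest from the median, r was 0.994 for the first pair and 0.958, 0.942 and 0.916 for the others. Array points share the scaling of their array, the division at 0.95 was set with these values in view, and no p is given. The correlation of whey acidic protein 20461 with WFDC3 20444, 0.714 over all arrays, was 0.337 without control replicate 2, and that with WFDC2 20426 went from 0.706 to 0.299. Its correlation with WFDC2 20431 went from 0.711 to 0.677 and that with WDNM1 20451 from 0.630 to 0.612.

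**Figure D4:**
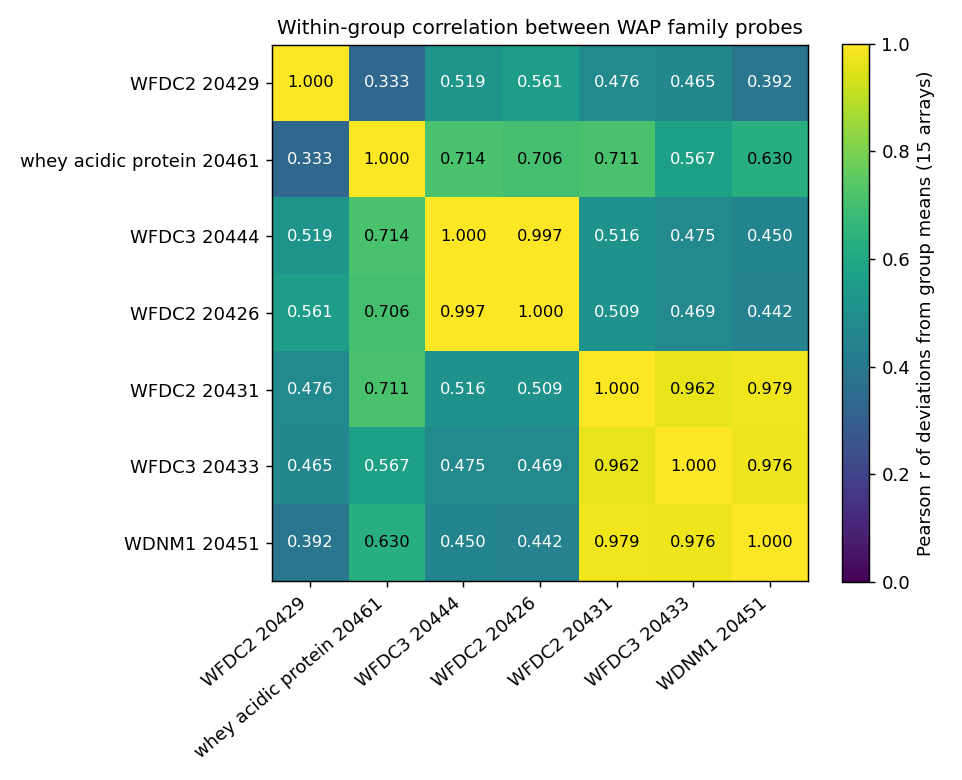
Pearson r between the deviations from the group means of each pair of the 7 probes over 15 arrays (both axes list the probes, and the colour and the printed value give r). WFDC2 20426 and WFDC3 20444 (0.997) form a block, WFDC2 20431, WFDC3 20433 and WDNM1 20451 form another (0.962 to 0.979), and the other 17 pairs lie between 0.333 and 0.714.

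Within groups, the members were then set against vitellogenin, the yolk precursor made by the estrogen-exposed liver, as the mean level of the 9 tested vitellogenin probes. That mean ran from −1.86 to −0.78 in controls, 1.30 to 3.20 at 50 ng/L and 3.91 to 4.94 at 250 ng/L. The strongest relation was that of WFDC2 20426 (r = 0.368, permutation p = 0.229; rho = 0.254, p = 0.387), followed by WFDC3 20444 (r = 0.331, p = 0.283; rho = 0.211, p = 0.484) and WFDC2 20429 (r = 0.250, p = 0.535; rho = 0.318, p = 0.318). The other 4 probes had r between −0.106 (WFDC2 20431) and −0.0326 (WFDC3 20433). In two-sided permutation tests within groups none of the 7 passed after Benjamini-Hochberg adjustment over 7 (adjusted p = 0.904 for each r and 0.861 for each rho). Without 50 ng/L replicates 2 and 3, the arrays farthest from the median of vitellogenin, r lay between −0.121 and 0.108. Without 50 ng/L replicate 2 alone it was 0.0593 for WFDC2 20426 and 0.0314 for WFDC3 20444, and without control replicate 5 it was 0.581 and 0.552. With 15 arrays in 3 groups and an adjustment over 7 probes, a weak relation would not have been detectable, and a moderate one could have been missed.

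**Figure D5:**
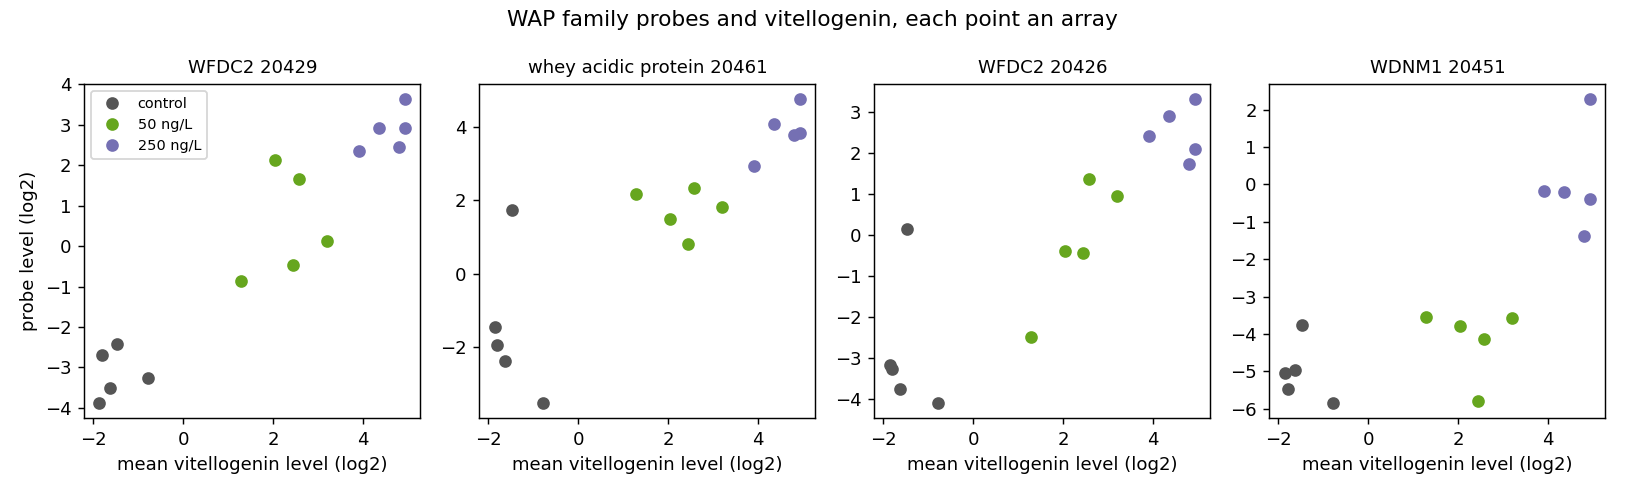
Level of WFDC2 20429, whey acidic protein 20461, WFDC2 20426 and WDNM1 20451 (y axes, log2 relative to the 75th percentile of the array) against the mean level of 9 vitellogenin probes (x axis, same scale), each point an array coloured by group. WDNM1 20451 lies between −5.85 and −3.76 in controls and between −5.78 and −3.55 at 50 ng/L, where it is dim. The vitellogenin mean lies between −1.86 and −0.78 in controls and between 1.30 and 3.20 at 50 ng/L.

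Genes whose levels over the 15 arrays were most like each member were sought among 3880 named probes outside the family. For WFDC2 20429 they were zona pellucida sperm-binding protein 4, an egg envelope protein (r = 0.962), and serotransferrin I, the iron carrier of plasma (r = 0.961), followed by probes named TraD protein (0.959), DNA translocase ftsK (0.958) and gamma-gliadin (0.956). The last 3 are names of bacterial and plant proteins and are given as on the array. For WFDC2 20426 and WFDC3 20444 a probe named sporozoite surface protein 2 came first (0.952 and 0.948), with DNA translocase ftsK next (0.946 and 0.942) and zona pellucida sperm-binding protein 4 after it (0.938 and 0.936), then serotransferrin I (0.936 and 0.934) and TraD protein (0.933 and 0.930). Whey acidic protein 20461 was most like another sporozoite surface protein 2 probe (0.918) and 3 probes of zona pellucida sperm-binding protein 4 (0.913 to 0.917), followed by serotransferrin I (0.912).

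The first 4 probes nearest to WFDC2 20431, WFDC3 20433 and WDNM1 20451 were the same for all 3 and were not among the first 5 of the other members. Cyclin-dependent kinase inhibitor 1C, which restrains the cell cycle, had r = 0.922, 0.932 and 0.933 with them, p53-associated parkin-like cytoplasmic protein 0.925, 0.931 and 0.926, and CYR61, a secreted matrix-associated protein, 0.918, 0.915 and 0.917. The shifts of these genes at 50 and 250 ng/L were 0.48 and 2.97 for cyclin-dependent kinase inhibitor 1C, 0.29 and 1.73 for the parkin-like protein, and 0.71 and 2.44 for CYR61. Zinc and ring finger 4, with r = 0.904, 0.901 and 0.890, had 1.06 and 3.01. The fifth probe differed. For WFDC2 20431 it was the sporozoite surface protein 2 probe nearest to whey acidic protein 20461 (r = 0.894, shifts of 2.22 and 4.52), for WFDC3 20433 it was vitellogenin II (0.899, shifts of 2.89 and 7.48), and for WDNM1 20451 a further CYR61 probe (0.883, shifts of 0.34 and 1.83). Zona pellucida sperm-binding protein 4 had 2.87 and 5.36 on the probe closest to WFDC2 20429, and serotransferrin I 2.93 and 5.39. These correlations are dominated by the differences between groups and are descriptions over 15 arrays.

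Deviations within groups picked out other genes, none of which shifted as the members did. WFDC2 20429 was closest to beta-ureidopropionase (r = 0.793), an enzyme of pyrimidine breakdown, and 60S ribosomal protein L6 (0.773). WFDC3 20444 was closest to peptidylprolyl isomerase-like 4 (0.882) and WFDC2 20426 to mannose-P-dolichol utilization defect 1 protein (0.876). WFDC3 20433 and WDNM1 20451 were closest to tropomyosin alpha 3 chain (0.880 and 0.826), WFDC2 20431 to translocon-associated protein gamma subunit (0.812) and whey acidic protein 20461 to the 7.6 kDa polypeptide of RNA polymerase II (0.855). The shifts of these genes from control at either dose were between −0.78 and 0.44. Each gene was picked from the top of 3880 candidates over 15 arrays, where high values of r also arise by chance. These correlations carry no test.

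Genes outside the family whose names are those of protease inhibitors or of their chains were read next. Names alone were matched, so whether each product itself inhibits a protease was not checked. Of 29 such genes tested, most of them plasma serpins and related inhibitors that the liver secretes, 0 were called by limma in any of the 3 comparisons, and 0, 1 and 1 had an unadjusted p below 0.05 for the lower dose, the higher dose and the doses against each other. Over all 6145 probes the unadjusted counts were 248, 827 and 494, the background for those of the other lists as well. Their median shift was 0.08 at 50 ng/L and −0.07 at 250 ng/L, against −0.01 and −0.05 over all probes. Contrapsin-like protease inhibitor 3 differed from control at 250 ng/L by −0.46 ± 0.189 (SE), alpha-1-antichymotrypsin by −0.50 ± 0.246, inter-alpha-trypsin inhibitor heavy chain H3 by −0.42 ± 0.236 and antithrombin-III, the inhibitor of thrombin, by −0.53 ± 0.302. Chelonianin, named for an inhibitor of sea turtles that itself contains a WAP domain, was singled out after its values were seen. Its probe, well above background on 11 of the 15 arrays, had shifts of −0.21 ± 0.294 and 0.07 ± 0.294.

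Of 28 serine protease genes, the class of enzymes that several WAP proteins inhibit in mammals, 1 rose in each comparison and 0 fell. It was plasma kallikrein, a contact-phase protease made by the liver, with 1.98 ± 0.370 at 50 ng/L (limma adjusted p = 0.0188), 4.13 ± 0.370 at 250 ng/L (3.47e-06) and 2.15 ± 0.370 between the doses (0.00821). Prostasin differed by 0.44 ± 0.197 at 50 ng/L and coagulation factor XI by 0.80 ± 0.334 at 250 ng/L, and neither was called. The median shift of the list was 0.61 at 50 ng/L, with 24 of 28 genes positive, and 0.61 at 250 ng/L, with 17 of 28 positive. The list includes elastases that also count as exocrine pancreas markers, and its mean had a within-group r of −0.699 to −0.302 with the members. This mean and that of the pancreas markers below were both lowest in control replicate 2 (−0.09 and −1.37). Both were highest in 250 ng/L replicate 3 (2.84 and 3.84), and their r with WFDC2 20426 was −0.699 and −0.724. How much of the list's shifts comes from pancreas genes was not tested. Of 6 vitellogenin and zona pellucida genes, 5 rose at 50 ng/L and 6 at 250 ng/L. Vitellogenin rose by 6.27 ± 0.525 and 8.92 ± 0.525, and zona pellucida sperm-binding protein 4, on its brightest probe, by 2.69 ± 0.383 and 4.18 ± 0.383.

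Markers of other cell types were read beside the members, since in a piece of tissue fewer cells of a type and less RNA per cell cannot be told apart. The mean level of the 20 hepatocyte genes tested of 21 ran from 5.26 to 5.59 in controls, 5.49 to 6.01 at 50 ng/L and 5.47 to 5.93 at 250 ng/L. The group means were 5.44, 5.73 and 5.73. Serotransferrin I rose at both doses, as 1 of these 20 genes, and 0 fell. Its shifts of 2.93 and 5.39 are part of this mean. Exocrine pancreas, which in many fish lies within or along the liver, was represented by 21 of 21 genes, of which 0 were called by limma in any comparison and 0 had an unadjusted p below 0.05. Their shifts were positive in 20 of 21 genes at 50 ng/L (median 1.13) and in 19 of 21 at 250 ng/L (median 1.06). Its mean level ran from −1.37 to 2.30 in controls, 0.48 to 3.35 at 50 ng/L and 0.99 to 3.84 at 250 ng/L. The value of −1.37 belonged to control replicate 2, the array in which 6 of the members were at their highest control level by a wide margin and WFDC2 20429 by a small one. The other 4 controls lay between 1.12 and 2.30. Within groups the pancreas mean had r = −0.724 with WFDC2 20426, −0.704 with WFDC3 20444, −0.646 with whey acidic protein 20461 and −0.528 with WFDC2 20429, and −0.352 to −0.303 with the other 3. Its part in the members' levels was not tested.

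Epithelial and bile duct markers were read because WAP proteins of mammals are largely made by epithelia. Of 26 genes tested of 28, 0 were called at 50 ng/L, where 1 had an unadjusted p below 0.05, and 1 rose at 250 ng/L: type I keratin of 50 kDa, a cytoskeletal protein of epithelia, by 2.92 ± 0.383 (limma adjusted p = 0.00017). The unadjusted count was 4 at 250 ng/L and 1 for the doses against each other. Claudin-4, a tight junction protein, differed by 4.02 ± 1.14 at 250 ng/L and was not called (limma adjusted p = 0.0902), and mucin 10 differed by −0.86 ± 0.248 and was not called either (limma adjusted p = 0.0933). The mean of the list ran from −3.70 to −2.94 in controls, −3.40 to −2.67 at 50 ng/L and −3.12 to −2.57 at 250 ng/L, and its within-group r with the members was 0.0822 to 0.533. Of 19 muscle genes tested of 27, 1 was called, the myosin heavy chain of gizzard smooth muscle. It rose by 1.43 ± 0.256 at 250 ng/L and differed by 1.21 ± 0.256 from the lower to the higher dose (limma adjusted p = 0.0323). For the higher dose, 6 of the 19 had an unadjusted p below 0.05, against 827 of all 6145 probes, and 14 shifts were positive. The unadjusted count was 1 for the lower dose and 3 for the doses against each other. The muscle mean ran from −5.11 to −4.54 in controls, −4.91 to −4.23 at 50 ng/L and −4.62 to −4.18 at 250 ng/L. Its within-group r was 0.709 with WFDC3 20444 and 0.700 with WFDC2 20426. Among 12 leukocyte genes 0 were called and 1 had an unadjusted p below 0.05 in each comparison, and their mean ran from −2.94 to −1.10 in controls, −2.43 to −1.29 at 50 ng/L and −2.71 to −0.74 at 250 ng/L. Among 8 red blood cell genes hemoglobin alpha-D fell by 1.44 ± 0.353 at 250 ng/L, while the embryonic hemoglobin alpha chain differed by 1.15 ± 0.311 and was not called (limma adjusted p = 0.0689). The mean of that list ran from −2.53 to −1.59 over all arrays and had a within-group r of 0.694 with WFDC2 20429 and 0.273 to 0.471 with the others. The part of these cell types in the members' levels was not tested.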

How the data were processed

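Liver RNA of 15 arrays was analysed, 5 per group. The deposited intensity values came, per the file headers, from Agilent Feature Extraction 10.7.1.1, which subtracts background from each spot. The deposited table of log2 values by the authors served as an alternative only. The sources used here do not say how it was made. Its columns correlated at 0.993 to 0.998 with the log2 processed signals of single spots, before outlier-flagged spots were dropped and spots averaged. In the matching, 0 value columns were left unmatched.

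The log2 processed signals of the 2 spots of a probe were averaged once outlier-flagged spots (0 to 29 on an array) had been dropped, and the array's own 75th percentile was subtracted. That percentile was 542 to 3586 in signal units, and 75.6% to 91.7% of probes were well above background. By group the percentile was 1382 to 2473 in controls, 542 to 3586 at 50 ng/L and 793 to 2762 at 250 ng/L. The number of arrays limits the precision. Probes well above background on at least 5 of 15 arrays (6145 of 7152) were tested with limma 3.58.1 in R 4.3.3, as group means over all arrays with 12 residual degrees of freedom, and called at a Benjamini-Hochberg adjusted p below 0.05. On data simulated for 250 ng/L against control over 6139 probes, 44% of shifts of 1, 82% of shifts of 2 and 100% of shifts of 4 were recovered, with 11 false calls. The simulated noise was normal and independent between probes, without slide effects or outlying arrays. These shares are therefore not the detection rates of the members.

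Correlations within groups used 100000 permutations of arrays within groups. The members and gene lists were chosen with earlier results of these data known. All members are named, as are up to 4 genes per list with the smallest p and the 5 probes whose levels are most like each member. Of the 5 most like it in deviations within groups, the first 1 or 2 are named. Lists were matched by name, with the brightest probe for each gene. Replicates were numbered within groups in the order of the samples and pair nothing. Alternatives were quantile and median scaling, the deposited table, normexp (offset 50, run on the median signal because the mean signal is not among the columns used here), stricter and no signal filter, slide as a block, each slide alone and each array left out.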

Additional observations from a re-analysis of the deposited data

Results flagged for a closer look

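A Dixon test at the 95% level (critical value 0.71) was applied to each member in each group of 5 arrays, and a sample stood apart in 6 of 21 cases, where chance gives about 1 in 20. The cases are not independent, since several probes follow each other. Control replicate 2 was the high array for WFDC2 20426 (level 0.13, gap over range 0.778), WFDC3 20444 (−0.19, 0.721) and WFDC3 20433 (−3.98, 0.833). The same array had the lowest level of exocrine pancreas markers, −1.37. At 50 ng/L replicate 5 was the low array for WFDC2 20431 (−4.71, 0.760), WFDC3 20433 (−5.40, 0.815) and WDNM1 20451 (−5.78, 0.738). Its vitellogenin mean, 2.45, lay inside the range of the other 4 arrays at that dose. Without 50 ng/L replicate 5 the shifts of these 3 probes at 50 ng/L were 1.73, 1.52 and 1.26.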

How the results depend on the processing

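All 7 members kept positive shifts in all 3 comparisons under every alternative run. The members were selected on their rise, so the kept sign is a description. Every scaling whose method is known removes differences in brightness between arrays, so values without such scaling were not among the alternatives. Of the 168 values per comparison, 160 at 50 ng/L, 146 between the doses and 162 at 250 ng/L stayed on their side of the threshold, and the 6 that lost it at 250 ng/L were within slide 1. With other scalings the members' shifts at 250 ng/L were 4.07 to 5.98 and at 50 ng/L 0.823 to 3.67. The low end at 250 ng/L came from normexp, with 4.25 for WFDC2 20431, 4.07 for WFDC3 20433 and 4.10 for WDNM1 20451. The other members had 4.81 to 5.51 there, so the shifts at 250 ng/L were less alike under normexp. Under normexp the median shift of all probes was 0.187 at 50 ng/L and −0.146 between the doses, against −0.01 and −0.04 with the scaling used.

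Members called at 50 ng/L were 2 with slide as a block, 0 within slide 1, 4 within slide 2, and 1 to 4 with an array left out. At 250 ng/L 1 was called within slide 1. Between the doses 0 were called within either slide, and 3 to 6 with an array left out. Over all probes, the share called at 50 ng/L was 0.553% with slide as a block, 0.0488% within slide 1 and 0.423% within slide 2. It was 0.358% to 0.586% with an array left out. At 250 ng/L the share was 0.684% within slide 1 and 1.74% (94 higher and 13 lower) within slide 2. Between the doses 0 were called within either slide, where 473 and 608 had an unadjusted p below 0.05, and 0.57% to 1.09% with an array left out, the lowest being 0.57% without 50 ng/L replicate 5 and 0.635% without 250 ng/L replicate 2. Each slide holds fewer arrays. At 250 ng/L 127 were higher and 38 lower, against 132 and 63 with quantile normalization and 127 and 66 in the deposited table.

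The weak correlations with vitellogenin changed sign under several settings, without passing the test in any. With normexp r was 0.0117 for WFDC2 20431, 0.0412 for WDNM1 20451 and 0.0338 for whey acidic protein 20461. With slide as a block it was 0.0257 for WFDC2 20431, 0.118 for WFDC3 20433, 0.0948 for WDNM1 20451 and 0.0666 for whey acidic protein 20461. Within slide 1 it was 0.265, 0.170, 0.222 and 0.442 for the same probes, and within slide 2 −0.313 for WFDC2 20429. With an array left out r was 0.0593 to 0.581 for WFDC2 20426 and 0.0314 to 0.552 for WFDC3 20444, in both cases lowest without 50 ng/L replicate 2 and highest without control replicate 5. It was −0.0766 to 0.433 for WFDC2 20429, −0.331 to 0.0616 for WFDC2 20431, −0.270 to 0.0487 for WFDC3 20433, −0.265 to 0.0924 for WDNM1 20451 and −0.187 to 0.201 for whey acidic protein 20461. The cause was not tested. No paired analysis was possible because the labels give no replicate numbers. WFDC2 20431, WFDC3 20433 and WDNM1 20451 are dim in controls and at 50 ng/L. Whether their low signal over background affects the size of their shifts was not tested.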
